A study of Mus musculus with 15 samples.

Results

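The 4 adult myosin heavy chain genes of skeletal muscle, Myh2, Myh1, Myh4 and Myh7, were followed across gastrocnemius RNA from 15 aged female mice. They were taken by symbol from a list of fibre-type genes. Their values were not a criterion, but the choice was made with earlier results of these data known. Each symbol matched 1 of the 55450 Ensembl genes in the deposited counts. All 4 were among the 16920 genes that passed the filter on low counts. The mice were C57BL/6JN females older than 17 months and were split by the number of positive frailty markers, with at most 1 marker in the Low group (labelled robust) and at least 2 in the High group (labelled frail). Control mice stayed sedentary. Run mice ran downhill (22 degree decline, 13 m/min) on 2 consecutive days, and their muscle was taken 24 h after the last bout. The groups were Low Control (n = 4), Low Run (n = 4), High Control (n = 3) and High Run (n = 4). Running was assigned at random, whereas the frailty groups were set afterwards from percentiles of the same cohort. Each library came from powdered gastrocnemius of 1 mouse, so p-values measure the spread between mice. All fibre types of the muscle were mixed, and fewer fibres of a type cannot be told apart from less RNA per fibre.

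Myosin heavy chain is the motor of the thick filament, and each muscle fibre is named after the heavy chain it holds. Myh7 encodes the slow chain of type I fibres, which the heart can also make. Myh2 encodes the chain of fast oxidative type IIa fibres, Myh1 that of type IIx fibres and Myh4 that of the fastest, glycolytic type IIb fibres. The mouse gastrocnemius is known as a mostly fast muscle, and its fibres can exchange neighbouring isoforms with training, disuse and loss of innervation.

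The 3 fast genes lie side by side on chromosome 11 and are read in the same direction, while the slow gene lies on chromosome 14. On GRCm38, Myh2 (ENSMUSG00000033196) spans chr11:67171027-67197517, Myh1 (ENSMUSG00000056328) chr11:67200052-67224575 and Myh4 (ENSMUSG00000057003) chr11:67238029-67260446, all on the plus strand. Myh7 (ENSMUSG00000053093) spans chr14:54970684-54994626 on the minus strand. The embryonic gene Myh3 lies before this cluster, and the perinatal gene Myh8 and the extraocular gene Myh13 after it. The coding lengths are close to each other, with 5826 bases in Myh2 and Myh1, 5817 in Myh4 and 5805 in Myh7.

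The sequences before the transcription starts are shown because those of the 3 fast genes share a run of bases. Outside the transcripts, no other sequence of these genes was compared. Each line holds the 250 bases before a RefSeq start of GRCm38.p6, 5′ to 3′ on the gene's strand, at chr11:67170777-67171026 for Myh2, chr11:67199852-67200101 for Myh1, chr11:67237562-67237811 for Myh4 and chr14:54994550-54994799 for Myh7. Of the 2 starts RefSeq lists for Myh7, the one nearest the coding sequence was used. In the fast genes, capitals mark the longest run of letters that all 3 windows share and every match to TATAAA. In Myh7, capitals mark matches to the E-box CANNTG, the general binding motif of myogenic basic helix-loop-helix factors.
Myh2: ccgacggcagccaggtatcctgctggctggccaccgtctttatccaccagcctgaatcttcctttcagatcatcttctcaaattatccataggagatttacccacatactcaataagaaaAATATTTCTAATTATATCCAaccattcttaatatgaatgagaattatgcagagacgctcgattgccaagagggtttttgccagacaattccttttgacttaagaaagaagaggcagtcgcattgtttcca
Myh1: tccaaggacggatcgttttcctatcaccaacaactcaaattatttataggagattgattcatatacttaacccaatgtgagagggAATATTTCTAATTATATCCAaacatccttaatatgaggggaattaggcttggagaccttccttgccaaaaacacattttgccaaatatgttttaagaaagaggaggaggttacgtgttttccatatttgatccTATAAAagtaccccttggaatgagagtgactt
Myh4: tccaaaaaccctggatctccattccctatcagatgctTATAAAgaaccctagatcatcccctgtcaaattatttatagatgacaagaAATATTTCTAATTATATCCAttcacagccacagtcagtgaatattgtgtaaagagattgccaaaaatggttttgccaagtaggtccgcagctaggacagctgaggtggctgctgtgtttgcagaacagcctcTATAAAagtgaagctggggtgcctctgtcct
Myh7: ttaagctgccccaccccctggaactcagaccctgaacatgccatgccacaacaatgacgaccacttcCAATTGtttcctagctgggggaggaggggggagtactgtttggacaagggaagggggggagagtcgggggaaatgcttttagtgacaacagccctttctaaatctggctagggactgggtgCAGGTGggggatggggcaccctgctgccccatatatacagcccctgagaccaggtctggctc

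The run common to the fast genes was 20 bases long, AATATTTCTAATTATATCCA. It began at base -130 of Myh2, -165 of Myh1 and -163 of Myh4, counted from the transcription start. Among all 32851 windows of the same length in the table, which can hold several starts of a gene, 3 contained it on either strand (0.00913%), and these were the windows of Myh2, Myh1 and Myh4. The window of the perinatal gene Myh8, the next gene in the cluster, contained a piece of 14 bases of it, and that of Myh3 a piece of 7 bases. The window of Myh7 did not contain the run.

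The other motifs were not shared by all 3 fast genes. TATAAA, the core of the TATA box, was searched on the gene's own strand and had 1 match in Myh1 and 2 in Myh4, and 7.59% of all windows held it. The binding motif of the MEF2 factors, searched on both strands, had 1 match each in Myh1 and Myh4, against 2.92% of all windows, and the CArG box of serum response factor had 1 match in Myh4, against 1.47%. The MCAT motif CATTCC, bound by TEAD factors, had 1 match each in Myh1 and Myh4, against 12.6% of all windows on both strands. CANNTG had 2 matches each in Myh4 and Myh7, where 66.2% of windows hold at least 1. The absence of a match says only that these letters were not found in this window.

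Because the heavy chains are close relatives, reads from one can align equally well to another, and the authors counted uniquely aligned pairs only. Of all 100-base words in the longest coding transcript of each gene, 9.17% in Myh2, 9.73% in Myh1 and 3.85% in Myh4 also occur in a transcript of another gene, mainly in each other. For Myh7 the share was 11.2%, all of it with the cardiac gene Myh6. With 50-base words it was between 18.9% and 26.9%. Myh1 and Myh2 shared the most with each other among the 4 (7.59% of their 100-base words), so the levels of these near-identical genes are uncertain to the extent that reads were lost from the shared parts.

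The libraries held between 19395125 and 30699216 counts, and the 4 genes together took 3.87% to 6.88% of them. On the first principal component of the deposited variance-stabilized (VST) values of the tested genes, which held 34.5% of the variance, Low Control D9 (-71.4) and High Run D62 (-46.7) lay apart from the other 13 mice, and differences printed below that turned or moved by over 1.5 times without both are given without them as well. For genes other than the members this was added after the data had been seen. The labelled tissue was checked on 5 skeletal muscle fibre markers, which summed to 70018 to 111182 CPM (counts scaled to a common library size, with TMM factors) over the mice. The 5 heart markers summed to between 5.22 CPM in High Control D67 and 33.6 CPM in High Run D62. Of these markers, Nppa had at most 2 counts and Myl7 at most 1 in any mouse.

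Myh4 was the dominant heavy chain. By counts not divided by length, it was 1 of the 2 most abundant counted genes in every mouse and first in 11 of the 15 mice. The counted genes include none on the mitochondrial chromosome. Per kb of exon, Myh4 was not the highest gene, with a mean of 7805 CPM per kb beside 14048 for Tnnt3, fast troponin T. Per kb of exon and after TMM normalization, Myh4 ranged from 5245 to 11494 CPM per kb, with a median of 8107. Myh1 followed at 362.3 to 774.1 CPM per kb (median 580.7), Myh2 at 204.2 to 638.5 (median 334.8) and Myh7 at 64.1 to 191.4 (median 107.7). This order, Myh4 over Myh1 over Myh2 over Myh7, held within each of the 15 mice.

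The distance between neighbours in this order differed widely. Myh4 exceeded Myh1 by 9.35 to 19.8 times within a mouse. Myh1 exceeded Myh2 by 1.15 times in D52 to 2.4 times in D9, and the ranges of these neighbours over the 15 mice overlapped. Myh2 exceeded Myh7 by 1.59 times in D62 to 4.4 times in D67, without overlap of their ranges. Division by coding length in place of all annotated exons, which for Myh7 include retained introns (8616 bases against 6230 in its longest coding transcript), left the order in each mouse and brought Myh1 and Myh2 as near as 1.02 times in D52, and the ranges of Myh2 and Myh7 then overlapped.

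**Figure D1:**
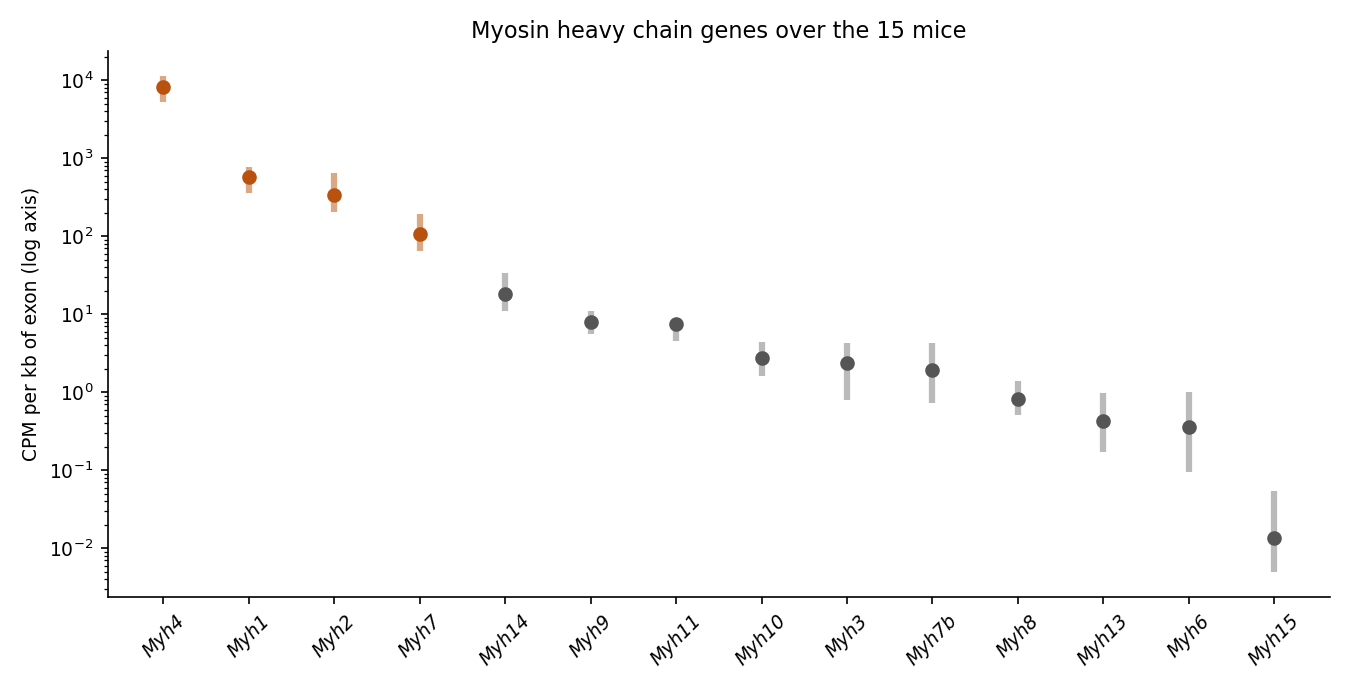
CPM per kb of exon (log axis) of 14 myosin heavy chain genes, with the median (point) and the range (bar) over 15 mice. The 4 adult genes (orange) lie above the 10 others (grey), the lowest value of Myh7 (64.1) included.

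The 10 other myosin heavy chain genes were far less abundant. The nonmuscle gene Myh14 was the highest of them, with a mean of 19 CPM per kb, followed by nonmuscle Myh9 (8.09) and smooth muscle Myh11 (7.18). The 6 other sarcomeric genes together added between 0.0405% and 0.128% to the sarcomeric pool of a mouse. Among them, the embryonic chain Myh3 had a mean of 2.30 CPM per kb, the slow-tonic chain Myh7b 2.23, the perinatal chain Myh8 0.893, the extraocular chain Myh13 0.457 and the cardiac chain Myh6 0.38. Myh15 had at most 8 counts in a mouse and did not pass the filter.

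Running was compared with the sedentary state within each frailty group, to ask how the heavy chain mRNA responded to lengthening contractions and whether frailty altered it. Myh4 was lower in Run than in Control mice of both frailty groups by about the same amount, and Myh1 showed little difference. Myh2 and Myh7 had positive estimates with wide intervals that included 0. The largest was that of Myh7 in the High group, a log2 fold change of 0.615 beside 0.12 in the Low group. No member was called at an FDR of 0.1 in any of the 6 comparisons by edgeR's quasi-likelihood test over all 16920 genes. The percentage of genes called at that FDR was 0% in each comparison.

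Without adjustment, 1 of the 4 members, Myh4, had p under 0.05 with running in the Low group, where 13.4% of all genes did. It was also the 1 member in the High group (5.18% of all genes) and with running adjusted for frailty (8.63%). None of the 4 had p under 0.05 for the Frailty × Run interaction (7.93% of all genes), for High Control against Low Control (5.86%) or for High Run against Low Run (2.51%). Other tools called more genes at the same FDR. DESeq2 called 10 genes with running in the Low group, 15 in the High group and 106 with running adjusted for frailty, and Myh4 was among the last. Limma's voom with quality weights called 45 genes in the High group, none of them a member.

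**Figure D2:**
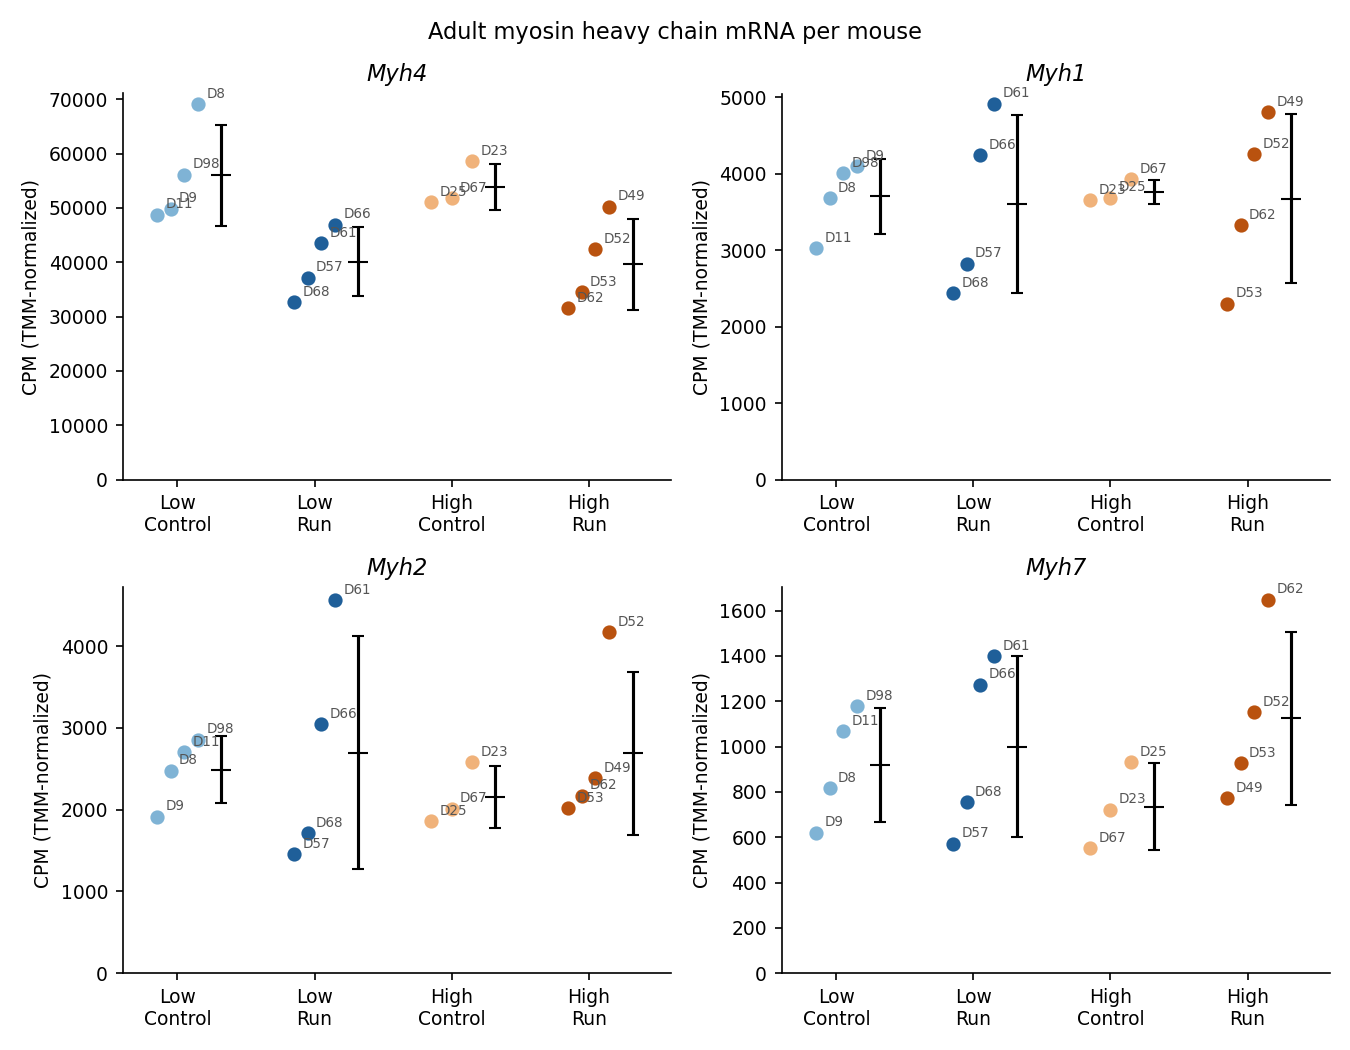
TMM-normalized CPM of the 4 genes in each mouse (points, labelled by mouse) with the group mean and SD (black bars), each axis starting at 0. For Myh4 the 4 Low Run mice lie below the 4 Low Control mice and the 4 High Run mice below the 3 High Control mice, whereas the groups overlap for Myh1, Myh2 and Myh7.

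For Myh4, the type IIb chain, the Low Control mice had 69150 CPM in D8, 49887 in D9, 48770 in D11 and 56131 in D98. The Low Run mice had 37149 CPM in D57, 43534 in D61, 46905 in D66 and 32689 in D68. Every Low Run mouse was thus below every Low Control mouse, which 6.93% of all genes showed in either direction. The means were 55985 ± 9356 CPM (SD, n = 4) in Control and 40069 ± 6370 (n = 4) in Run mice. The log2 fold change was -0.48 (SE 0.173, 95% interval -0.85 to -0.12), with an unadjusted edgeR p of 0.0133 and an adjusted p of 0.358.

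In the High group, Myh4 stood at 58632 CPM in D23, 51117 in D25 and 51769 in D67 of the Control mice. The High Run mice had 50216 CPM in D49, 42367 in D52, 34444 in D53 and 31554 in D62. No Run mouse reached the lowest Control mouse, and 7.07% of all genes showed no overlap in this comparison. The means were 53839 ± 4163 CPM (n = 3) and 39645 ± 8400 (n = 4). The log2 fold change was -0.44 (SE 0.185, 95% interval -0.84 to -0.05), with an unadjusted edgeR p of 0.0302 and an adjusted p of 0.956.

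The running difference in Myh4 was thus 0.716 times in Low and 0.736 times in High mice, and the interaction was 0.04 on the log2 scale with a 95% interval of -0.50 to 0.58 (0.19 without D9 and D62). Adjusted for frailty, Myh4 was 0.726 times as high in Run mice (log2 fold change -0.46, SE 0.127, 95% interval -0.73 to -0.19, unadjusted edgeR p of 0.00224, adjusted p = 0.413). By DESeq2 the same difference was -0.475 with an adjusted p of 0.0782, the single call among the members, and over all alternatives run it lay between -0.54 and -0.36. Without D9 and D62 it was -0.45.

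The Run mice were below the Control mice without overlap in both frailty groups for 25 genes, 0.148% of those tested, and Myh4 was 1 of them. This count was made after the values of Myh4 had been seen. It holds for TMM-normalized CPM, and on the VST values, which carry DESeq2's size factors, Myh4 did not overlap either (at most 20.16 in Low Run against at least 20.23 in Low Control, and at most 20.26 against at least 20.28 in the High group). As a plain percentage of the library, the groups overlapped in both comparisons, with Low Run up to 4.81% and Low Control from 4.64%, and High Run up to 5.26% and High Control from 5.02%.

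Since Myh4 made up most of the pool, the summed level of the 4 genes followed it. The sum was 63096 CPM on average in Low Control, 47368 in Low Run, 60486 in High Control and 47133 in High Run mice. Low Run and Low Control did not overlap in the sum (at most 55467 against at least 55570 CPM), and the High groups did.

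Frailty itself went with little difference in Myh4. High Control was at 0.962 times the Low Control level (log2 fold change -0.06, 95% interval -0.45 to 0.34, edgeR adjusted p = 0.942, and -0.11 without D9 and D62), and the groups overlapped, as they did for all 4 members, against 10.4% of genes without overlap. High Run was at 0.989 times the Low Run level (log2 fold change -0.02, 95% interval -0.38 to 0.35, edgeR adjusted p = 0.999, and 0.08 without D9 and D62), again with overlap for all 4 members, against 1.5% of genes without.

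**Figure D3:**
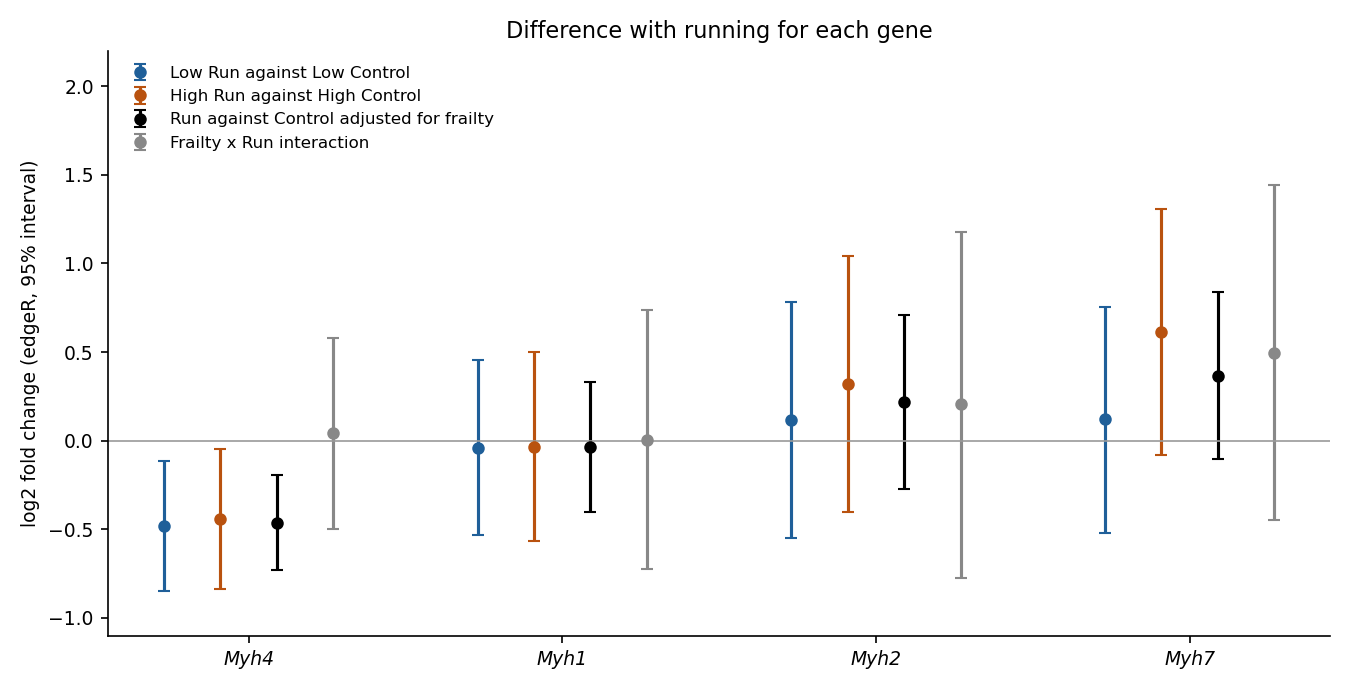
Log2 fold changes (points) with 95% intervals (bars) from edgeR for running in Low mice, in High mice, adjusted for frailty, and for their difference. The first 3 intervals of Myh4 lie below 0 and its interaction is centred near 0, while the intervals of Myh1, Myh2 and Myh7 include 0.

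For Myh1, the type IIx chain, the SD was larger in Run than in Control mice while the means were close. Low Control mice had 3679, 4096, 3027 and 4012 CPM in D8, D9, D11 and D98, and Low Run mice 2823, 4918, 4241 and 2439 in D57, D61, D66 and D68. High Control mice had 3654, 3689 and 3934 CPM in D23, D25 and D67, and High Run mice 4810, 4260, 2302 and 3326 in D49, D52, D53 and D62. In both frailty groups the Run mice reached above and below all Control mice. The SD was 485.6 CPM in Low Control and 1169 in Low Run, and 152.5 in High Control and 1101 in High Run. Myh2 and Myh7 also had a larger SD of CPM in Run mice of both frailty groups, and the difference in spread was not tested. The running difference adjusted for frailty was -0.04 on the log2 scale (SE 0.172, 95% interval -0.40 to 0.33, edgeR adjusted p = 0.965), and its sign turned under 4 of the alternatives and when D57, D68 or D53 was left out.

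For Myh2, the type IIa chain, 1 mouse of each Run group stood well above the rest. Low Control mice had 2475, 1915, 2704 and 2854 CPM in D8, D9, D11 and D98, and Low Run mice 1457, 4557, 3049 and 1714 in D57, D61, D66 and D68. High Control mice had 2583, 1861 and 2013 CPM in D23, D25 and D67, and High Run mice 2389, 4171, 2020 and 2170 in D49, D52, D53 and D62. D61 and D52 were the highest, and D57 and D68, also Run mice, the lowest of all 15. Without D61 the running difference in the Low group turned from 0.12 to -0.27, and without D9 and D62 it was 0.00148. Adjusted for frailty it was 0.22 (SE 0.231, 95% interval -0.27 to 0.71, edgeR adjusted p = 0.801). The interaction was 0.20 with a 95% interval of -0.78 to 1.18, and 0.40 without D9 and D62.

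For Myh7, the slow type I chain, the highest mouse was High Run D62. Low Control mice had 816.1, 619.9, 1068 and 1178 CPM in D8, D9, D11 and D98, and Low Run mice 572.2, 1399, 1273 and 756 in D57, D61, D66 and D68. High Control mice had 721.8, 932 and 552.3 CPM in D23, D25 and D67, and High Run mice 774, 1153, 927.6 and 1649 in D49, D52, D53 and D62. The High groups overlapped only in that Control mouse D25 was above Run mice D49 and D53. The log2 fold change with running was 0.12 in the Low group (SE 0.3, edgeR adjusted p = 0.87) and 0.615 in the High group (SE 0.329, 95% interval -0.08 to 1.31, unadjusted edgeR p of 0.0802, adjusted p = 0.956). Without D62 the difference in the High group was 0.365, and that in the Low group turned to -0.09 without D61 and to -0.04 without D9. The interaction was 0.50 with a 95% interval of -0.45 to 1.44.

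The members did not have equal spread between mice. The biological coefficient of variation, the spread between mice of a group relative to the mean, was 0.191 for Myh4, 0.245 for Myh1, 0.304 for Myh7 and 0.317 for Myh2, beside a median of 0.231 over all tested genes. From the lowest to the highest of the 15 mice, Myh4 differed 2.19 times, Myh1 2.14 times, Myh7 2.99 times and Myh2 3.13 times.

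To compare the makeup of the pool free of library size, counts per kb of exon of each gene were divided by their sum over the 4 genes. The Myh4 share was lower, and the shares of the other 3 genes higher, in Run than in Control mice of both frailty groups, and none of the 24 share tests passed the adjustment over them. The 4 shares of a mouse sum to 100%, so they do not vary independently. The p-values are two-sided and come from exact permutation of mice, with 70 arrangements of 4 against 4 mice, 35 of 3 against 4, and 2450 with run labels permuted within both frailty groups. Neither comparison within a frailty group can give a p below 0.0286.

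**Figure D4:**
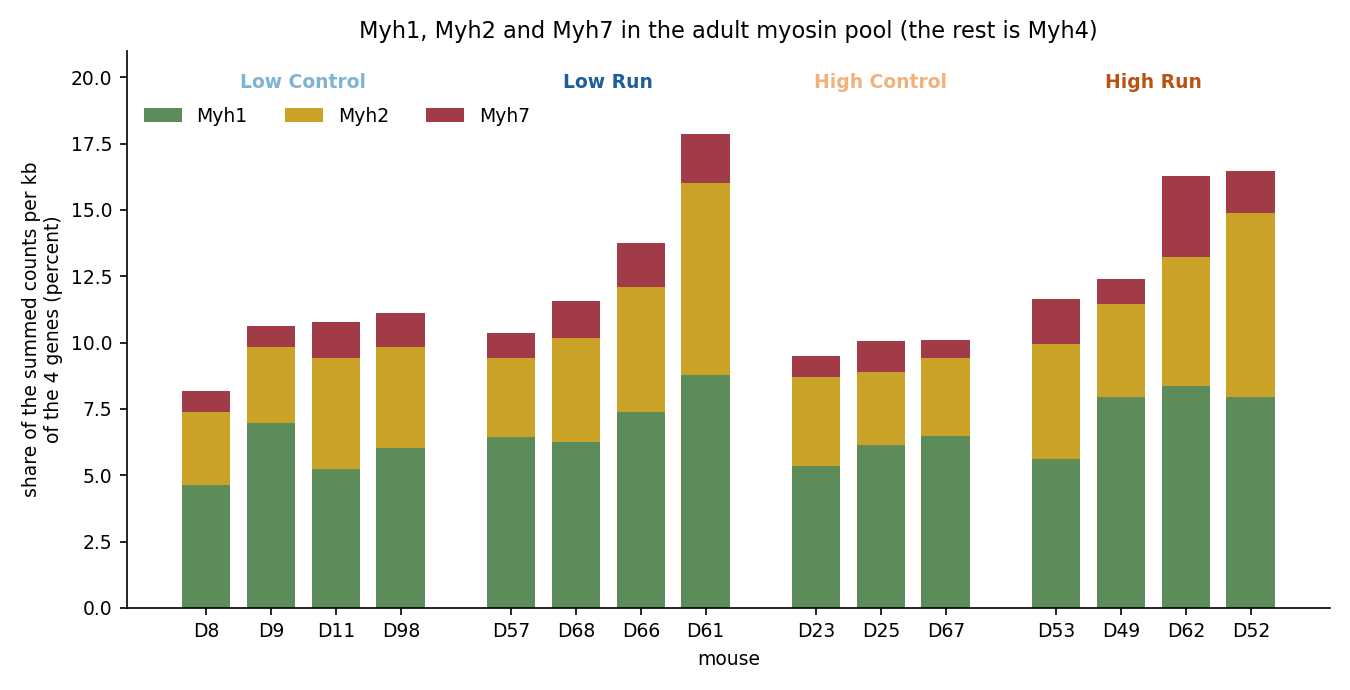
Stacked bars of the Myh1, Myh2 and Myh7 share (percent of the summed counts per kb of the 4 genes) in each mouse, ordered within the group by total height, with Myh4 as the rest to 100%. Control mice reach at most 11.1%, and 7 of the 8 Run mice are higher, up to 17.9% in Low Run D61.

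The Myh4 share was 91.8%, 89.4%, 89.2% and 88.9% in Low Control D8, D9, D11 and D98, and 89.6%, 82.1%, 86.2% and 88.4% in Low Run D57, D61, D66 and D68. In the High group it was 90.5%, 90.0% and 89.9% in Control D23, D25 and D67, and 87.6%, 83.5%, 88.4% and 83.7% in Run D49, D52, D53 and D62. The High groups did not overlap, and the Low groups overlapped through D57. The difference was -3.22 percentage points in Low mice (exact permutation p = 0.114, adjusted 0.274). It was -4.23 points without D57 and -1.73 points without D61. Omission of D57, the only mouse in the overlap, leaves groups without overlap by construction, so the exact permutation p of 0.0286 after it is no support. In High mice the difference was -4.32 points (exact permutation p = 0.0571, adjusted 0.229). Adjusted for frailty it was -3.77 points, with an exact permutation p of 0.00653 and 0.137 after adjustment over the 24 tests. The interaction was -1.09 points (exact permutation p = 0.737), and -0.251 without D9 and D62.

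The Myh2 share moved apart without overlap in the High group, whereas the CPM of Myh2 overlapped there (2020 to 4171 in Run against 1861 to 2583 in Control mice). The share was 3.36%, 2.76% and 2.95% in Control D23, D25 and D67 and 3.51%, 6.93%, 4.37% and 4.86% in Run D49, D52, D53 and D62. This was a difference of 1.89 points (exact permutation p = 0.0571, adjusted 0.229). In the Low group the Myh2 share averaged 3.41% ± 0.686 (SD, n = 4) in Control and 4.71% ± 1.84 (n = 4) in Run mice. Adjusted for frailty, the difference was 1.6 points (exact permutation p = 0.02, adjusted 0.137). Without D25 it was 1.53 points (exact permutation p = 0.0533), and without D9 and D62 1.52 points (exact permutation p = 0.0614).

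The Myh1 share averaged 5.71% ± 1.00 in Low Control, 7.22% ± 1.16 in Low Run, 5.99% ± 0.581 in High Control and 7.46% ± 1.26 in High Run mice. Adjusted for frailty, it was 1.49 points higher in Run mice (exact permutation p = 0.0192, adjusted 0.137). The CPM of Myh1 had lower means in Run than in Control mice in both groups, with means of 3704 and 3605 CPM in Low and 3759 and 3674 CPM in High Control and Run mice. On a centred log ratio, which relates each gene to the mean log2 of the 4, the sign turned to -0.06. The Myh2 difference adjusted for frailty was 0.152 on that scale (exact permutation p = 0.238).

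The Myh7 share averaged 1.05% ± 0.329 in Low Control, 1.47% ± 0.376 in Low Run, 0.864% ± 0.249 in High Control and 1.81% ± 0.89 in High Run mice, where D62 had 3.06%. Adjusted for frailty, it was 0.683 points higher in Run mice (exact permutation p = 0.0229, adjusted 0.137), and 0.43 points without D9 and D62 (exact permutation p = 0.0529). It was 0.661 points without D23 and 0.634 without D67 (exact permutation p = 0.0762 and 0.0848). The level of Myh4 over that of Myh7 per kb ranged from 65.4 to 121 in Low Control, 44.6 to 93 in Low Run, 78.5 to 134 in High Control and 27.4 to 92.9 in High Run mice.

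The mice with high Myh7 also had high levels of the thin-filament, light-chain and calcium-pump genes that slow fibres use. Over the 15 mice, all 10 slow-fibre partners had a positive Pearson's r with Myh7 on the VST scale, with a median of 0.675 and a range of 0.474 to 0.802, beside a median of -0.01 over 13771 protein-coding genes. The calcium pump of slow fibres, Atp2a2, had r = 0.802, slow troponin I, Tnni1, 0.706, the Z-disc protein Myoz2 0.58 and the actin crosslinker Actn2 0.474. All 10 fast-fibre partners had a negative r with Myh7, with a median of -0.39. In the 13 mice without D9 and D62, the medians were 0.549 and -0.50, again with 10 positive and 10 negative values. These correlations are descriptions over mice that share normalization and groups.

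**Figure D5:**
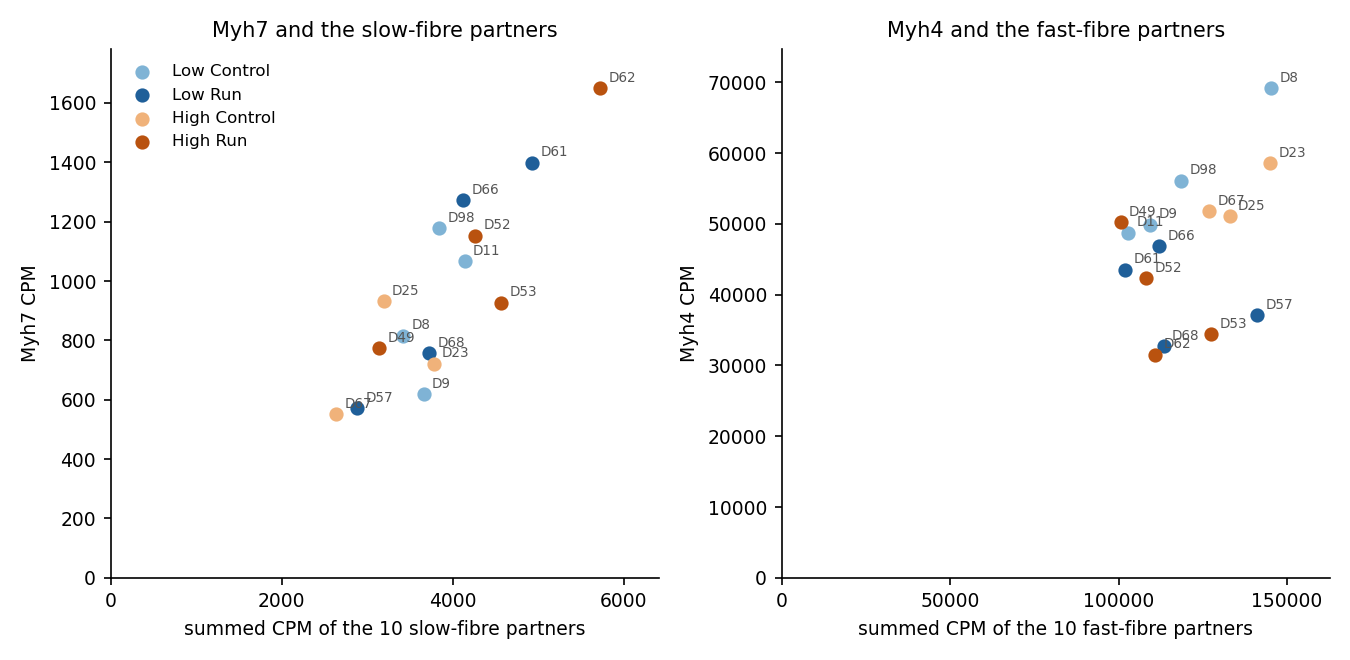
CPM of Myh7 against the summed CPM of 10 slow-fibre partners (left) and of Myh4 against that of 10 fast-fibre partners (right), with 1 point per mouse, coloured by group and labelled. High Run D62 is highest on both axes on the left (1649 and 5725 CPM), and on the right Low Run D57 lies far below Low Control D8 in Myh4 at a near partner level (141146 and 145238 CPM).

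Of the other members, Myh2 had the same direction of relation, with a lower median for the slow-fibre partners, and Myh1 and Myh4 did not. Myh2 had a positive r with all 10 slow-fibre partners but with a median of 0.276, Myh1 with 2 of 10 (median -0.35) and Myh4 with 2 of 10 (median -0.47). With the fast-fibre partners, Myh4 had a positive r for 6 of 10 (median 0.172), Myh1 for 2 (median -0.27) and Myh2 for 1 (median -0.26). Without D9 and D62, the median was -0.00407 for Myh4 with the fast-fibre partners and -0.52 for Myh2, beside -0.50 for Myh7. In Low Run D57, for example, the fast-fibre partners summed to 141146 CPM, near the 145238 of Low Control D8, while Myh4 was at 37149 against 69150 CPM.

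No slow-fibre or fast-fibre partner was called with running at an FDR of 0.1. In the High group, all 10 slow-fibre partners had a positive log2 fold change with running and 5 had p under 0.05 (5.18% of all genes), with a median of 0.59 beside 0.05 over all genes. Tnni1 had 0.93 (edgeR adjusted p = 0.956), and Myoz2, which tethers calcineurin to the Z-disc of slow fibres, had 0.62 (adjusted p = 0.956). Without D9 and D62, 9 of the 10 were positive in the High group with a median of 0.383, 2 had p under 0.05 (6.85% of all genes), and Tnni1 had 0.68 and Myoz2 0.36. D62 had the highest partner sum of the High Run mice, 5725 CPM against 3137 to 4565. In the Low group the median was 0.17 beside 0.02 (0.09 without D9 and D62), and none of the 10 had p under 0.05. The fast-fibre partners had a negative log2 fold change in all 10 cases in the High group (median -0.29) and in 3 of 10 in the Low group (median 0.13, and 0.02 without D9 and D62), with 1 gene at p under 0.05 in each. Atp2a1, the fast calcium pump and the most abundant of them, had -0.25 in the Low group (edgeR adjusted p = 0.404) and -0.305 in the High group (adjusted p = 0.956), the same sign as Myh4 in both. Pvalb, the calcium buffer of fast fibres, averaged 6059 CPM in Low Control, 6967 in Low Run, 8269 in High Control and 5715 in High Run mice, and Myl1, the fast essential light chain, 4531, 5623, 5845 and 4499 CPM. The log2 fold changes of Pvalb with running were 0.20 in Low and -0.53 in High mice, and 0.03 and -0.37 without D9 and D62. Those of Myl1 were 0.31 and -0.38, and 0.15 and -0.17 without both mice. The interaction went from -0.73 to -0.40 for Pvalb and from -0.69 to -0.32 for Myl1.

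High Run D62, the mouse with the highest Myh7, also had the highest Schwann cell marker sum (375 CPM, against 97.6 to 241 in the other mice) and the highest satellite cell marker sum (83 CPM, against 40.3 to 53.4). The heart marker sum was also highest in D62, at 33.6 CPM, and came almost wholly from Myl4, an atrial and embryonic light chain with 4.98 to 32.8 CPM over the mice. Nppa, Myl7 and Tbx20 stayed at or below 0.504 CPM in every mouse. The next highest Myh7 mice, Low Run D61 and D66, had heart marker sums of 12.1 and 13.2 CPM, Schwann cell marker sums of 169 and 97.6 CPM and satellite cell marker sums of 44.5 and 47.4 CPM, within the range of the other mice. The part of these markers in the Myh7 difference was not tested.

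Among the other myosin heavy chains, the embryonic gene Myh3 had the smallest p of the list in the High group. It had 10.5 to 26.2 CPM in High Run and 4.80 to 11.6 CPM in High Control mice, with a log2 fold change of 1.29 (SE 0.322, edgeR adjusted p = 0.956), and -0.25 in the Low group (adjusted p = 0.679). Its interaction was 1.54 (edgeR adjusted p = 0.6). Nonmuscle Myh10 had opposite signs in the Low and High groups, -0.62 and 0.59, with an interaction of 1.21 (edgeR adjusted p = 0.6). None of the 9 tested genes was called in a comparison, and 1 of 9 in the Low (13.4% of all genes) and 2 of 9 in the High group (5.18%) had p under 0.05.

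Of 20 regulators of adult myosin genes, none was called either. Mafa and Maf, members of the large Maf family that activates Myh4 in type IIb fibres, were both higher with running in the Low group. Both were lower with running in the High group. Mafa averaged 68.1 CPM in Low Control, 112.5 in Low Run, 121.6 in High Control and 81.9 in High Run mice, with an interaction of -1.30 (edgeR adjusted p = 0.6). Maf averaged 315.7, 427.7, 500.8 and 334.8 CPM in the same groups, with an interaction of -1.02 (edgeR adjusted p = 0.6), and -0.66 without D9 and D62. Myh4 had an interaction near 0 in the same fit. Mef2c, an activator of slow and fast muscle genes and the most abundant regulator, averaged 811.6, 920.8, 964.3 and 728.6 CPM (interaction -0.59, edgeR adjusted p = 0.617). D9 (489 CPM) and D62 (368 CPM) were the lowest of all mice for Mef2c, and without them its interaction was -0.18.

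Of 15 genes for myosin folding, thick filament structure and turnover, 3 in the Low group (13.4% of all genes) and 1 in the High group (5.18%) had p under 0.05 with running, all with lower levels in Run mice, and none was called. Without D9 and D62, 1 in the Low group (7.33% of all genes) and 2 in the High group (6.85%) had p under 0.05, all lower in Run mice. Myom1, an M-band protein that links thick filaments, averaged 2430 CPM in Low Control and 1740 in Low Run mice without overlap (log2 fold change -0.48, edgeR adjusted p = 0.358), and 2055 and 2089 CPM in High Control and High Run (0.02, adjusted p = 0.992). Trim63, the muscle ubiquitin ligase that marks myosin heavy chain for degradation, averaged 2040 CPM in Low Control, 422.9 in Low Run, 594.5 in High Control and 1240 in High Run mice, with an interaction of 3.33 (SE 1.34, adjusted p = 0.6). These means were carried by D9 (6083 CPM) and D62 (3834 CPM), while the other 13 mice had 212 to 1413 CPM. Without both, the running difference was -0.72 in Low and -0.67 in High mice and the interaction 0.05. Ttn, the elastic sarcomere protein titin, averaged 10188, 9524, 10370 and 9179 CPM over the groups in the same order (interaction -0.08, adjusted p = 0.888).

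The antisense transcripts of the fast cluster, named after the annotation had been seen, were scarce beside the members. Myhas, which is read from the minus strand across the 3′ part of Myh1 and the gap before Myh4, had 5.42 to 58.4 CPM, and 9430073C21Rik, over the end of Myh2, 0.952 to 4.35 CPM. Myhas averaged 25.6 CPM in Low Control, 35.2 in Low Run, 49.9 in High Control and 28.6 in High Run mice, with an interaction of -1.26 (edgeR adjusted p = 0.6). D9 (5.42 CPM) and D62 (11.7 CPM) were the lowest of all mice, and without them the interaction was -0.67. The authors counted pairs on the strand of the gene.

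Among the 6 pairs of members on the VST scale over 15 mice, Myh1 and Myh2 had Pearson's r = 0.618 (permutation p = 0.0134, adjusted over the 6 pairs 0.0403) and Spearman's rho = 0.611 (permutation p = 0.0166, adjusted 0.0497). Myh2 and Myh7, which lie on different chromosomes, had r = 0.633 (permutation p = 0.0107, adjusted 0.0403) and rho = 0.643 (permutation p = 0.0113, adjusted 0.0497). Without the 2 mice farthest from the median of Myh1, D53 and D68, the first r was 0.593, and without D61 and D52, the farthest for Myh2, the second was 0.544 (permutation p = 0.0553). As deviations from the group means, they were 0.661 and 0.621. On the same deviations, the other fast pairs were also positive, with r = 0.7 for Myh1 and Myh4 (permutation p = 0.00346) and r = 0.522 for Myh2 and Myh4 (permutation p = 0.0461). Of the words of 50 bases in Myh1, 19.7% also occur in Myh2, and the part of this in their correlation was not tested.

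Pooled over the groups, the other pairs did not pass the adjustment. Myh1 and Myh4 had r = 0.557 (permutation p = 0.0317, adjusted 0.0633) but rho = 0.307, and r = 0.245 without D53 and D68, so that the pooled relation rests on those 2 mice, whereas r was 0.571 without D9 and D62 (permutation p = 0.0431). Myh4 and Myh7 had r = -0.24 and Myh2 and Myh4 r = 0.246, with permutation p above 0.37 in both. Myh1 and Myh7 had r = 0.189.

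Ranked over 13771 protein-coding genes by Pearson's r of VST values in the 15 mice, the genes most like Myh4 were Zbtb18 (r = 0.961), a transcriptional repressor, Alkbh5 (0.94), an RNA demethylase, Kif3c (0.934), a kinesin motor, D17Wsu92e (0.914) and Cacna1s (0.909), the voltage sensor of excitation-contraction coupling. Zbtb18 had 80.1 to 131 CPM. As deviations from the group means, its r with Myh4 was 0.907, and without the 2 mice farthest from the Myh4 median 0.942. The genes most like Myh2 were Fads6 (0.909), Klhl34 (0.9), Cacna1h (0.892), Tnfrsf14 (0.887) and Hdac7 (0.862), and those most like Myh1 were Kansl1 (0.89), Fbxl18 (0.884), Map3k3 (0.875), Aox1 (0.863) and Fan1 (0.861). For Myh7 they were Cchcr1 (0.841), Hspa12b (0.834), Xpo4 (0.828), Wwp2 (0.821) and Jrkl (0.815). The 4 lists of 5 genes had no gene in common, and no member was among the 5 genes most like another.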

How the data were processed

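Poly(A) RNA of powdered gastrocnemius was sequenced from 15 mice. The authors aligned the reads to mm10 with STAR (2.7.9a in the submitters' processing notes) and deposited counts per Ensembl gene, made with featureCounts from uniquely aligned proper pairs on the gene's strand, outside the mitochondrial genome. They also deposited variance-stabilized values on a log2 scale, made with DESeq2, and a recomputation from the counts differed by at most 5.33e-14. Counts of 16920 genes that passed filterByExpr were fitted with edgeR 4.0.16 (R 4.3.3), with TMM factors, 1 mean per group over all 15 mice and quasi-likelihood tests at an FDR of 0.1. Mice of 1 group differed by 17.3 to 216 times sampling noise (chi-square per degree of freedom), so each was counted as a separate replicate. Shares of the 4 genes were tested by exact permutation (SciPy 1.17.1), with adjustment over 24 tests, and pairs with 100000 resamples. The scripts were tested on simulated data. The named genes were the 4 members, the 5 genes most correlated with each, and, from each list, the 2 most abundant genes and the 2 with the smallest p for the interaction, of which 1 is not reported here. The alternatives were other normalizations, filters, tools (DESeq2 1.42.0, limma 3.58.1), length and GC offsets, and omission of each mouse. Omission of D9 and D62 together was among them. The members and lists were chosen with earlier results of these data known. Sequences came from RefSeq (GRCm38.p6).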

Additional observations from a re-analysis of the deposited data

Results flagged for a closer look

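The Myh1 share of the myosin pool in High Run mouse D53 was 5.59%, while the 3 other High Run mice had 7.95%, 7.95% and 8.36%. Its gap to the nearest of them was 0.851 of the whole range of the group, above the critical value of 0.829 for 4 mice. It was 1 of 24 combinations of gene, scale and group of 4 examined, and chance flags about 1 in 20. The same mouse had the lowest Myh1 level of all 15 (2302 CPM), and without it the running difference of Myh1 in the High group was 0.137 on the log2 scale.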

How the results depend on the processing

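No paired analysis was possible because each mouse was in 1 group and the groups share no mouse numbers. All alternatives run kept the sign of the Myh4 log2 fold change with running in Low and High mice and adjusted for frailty. Among the log2 fold changes under the alternatives, 401 kept their sign and their side of the threshold, 70 turned sign and 1 passed the threshold. By DESeq2, Myh4 was called with running adjusted for frailty (log2 fold change -0.475, adjusted p = 0.0782), 1 member against 0 by edgeR, and 106 genes in all. Without a count filter, edgeR called 86 genes with running in Low mice, 19 in High mice and 81 adjusted for frailty, and no member. With upper-quartile factors, the log2 fold change turned sign for Myh1 in running in Low mice (0.0373), Myh1 in the interaction (-0.0626), Myh4 in the interaction (-0.0142) and Myh1 in running adjusted for frailty (0.00596). With length and GC offsets, the log2 fold change turned sign for Myh1 in running in Low mice (0.113), Myh1 in the interaction (-0.214), Myh4 in the interaction (-0.171), Myh4 in High against Low Control (0.075), Myh1 in High against Low Run (-0.0541) and Myh1 in running adjusted for frailty (0.0058). With voom, the log2 fold change turned sign for Myh1 in running in Low mice (0.117), Myh1 in running in High mice (0.121), Myh2 in High against Low Run (0.197), Myh4 in High against Low Run (0.0283), Myh7 in High against Low Run (-0.0586) and Myh1 in running adjusted for frailty (0.119). With DESeq2, the log2 fold change turned sign for Myh1 in the interaction (-0.00141). Without a count filter, the log2 fold change turned sign for Myh1 in the interaction (-0.00339). With at least 10 counts in every mouse, the log2 fold change turned sign for Myh1 in the interaction (-0.000638). With the 2 groups alone, the log2 fold change turned sign for Myh2 in High against Low Run (0.00268). Without D9 and D62, the log2 fold change turned sign for Myh1 in running in Low mice (0.00458), Myh7 in running in Low mice (-0.0369), Myh1 in running in High mice (0.00661), Myh2 in High against Low Run (0.081), Myh4 in High against Low Run (0.0758), Myh7 in High against Low Run (-0.0778) and Myh1 in running adjusted for frailty (0.0056). In the same omission, added after the data had been seen for genes other than the members, the log2 fold change turned sign for Trim63 (-0.669) and Myom1 (-0.00349) in running in High mice and Mef2c in running in Low mice (-0.00724). On a centred log ratio, the Myh1 share turned sign with running in High mice (-0.164), between High and Low Run (-0.0422) and with running adjusted for frailty (-0.0607), and with running adjusted for frailty Myh2 (0.152, exact permutation p = 0.238) and Myh7 (0.355, exact permutation p = 0.0673) were no longer below 0.05. Without D9 and D62, the shares of Myh1 (-0.0529) and Myh7 (-0.0699) turned sign between High and Low Run, and those of Myh2 (1.52, exact permutation p = 0.0614) and Myh7 (0.43, exact permutation p = 0.0529) with running adjusted for frailty were no longer below 0.05. Without the 2 farthest mice, the unadjusted permutation p was no longer below 0.05 for Myh1 with Myh4 (r = 0.245) and Myh2 with Myh7 (r = 0.544). As deviations from group means it was below 0.05 for Myh2 with Myh4 (r = 0.522), and without D9 and D62 Myh4 with Myh7 turned sign (0.0143). When each mouse was left out in turn, the log2 fold change of Myh1 lay between -0.149 and 0.197 for the interaction, between -0.0697 and 0.0665 for High against Low Control, between -0.196 and 0.137 for running in High mice, between -0.134 and 0.212 for High against Low Run, between -0.235 and 0.101 for running in Low mice and between -0.136 and 0.0489 for running adjusted for frailty. Likewise, the log2 fold change of Myh2 lay between -0.0881 and 0.586 for the interaction, between -0.303 and 0.371 for High against Low Run and between -0.271 and 0.321 for running in Low mice. Likewise, the log2 fold change of Myh4 lay between -0.0922 and 0.138 for the interaction, between -0.123 and 0.0615 for High against Low Control and between -0.155 and 0.0755 for High against Low Run. Likewise, the log2 fold change of Myh7 lay between -0.0782 and 0.373 for High against Low Run and between -0.0944 and 0.312 for running in Low mice. Likewise, the difference in share (percentage points) of Myh1 lay between -0.445 and 0.592 for the interaction, between -0.0834 and 0.691 for High against Low Control and between -0.0773 and 0.869 for High against Low Run. Likewise, the difference in share (percentage points) of Myh2 lay between -0.0776 and 1.44 for the interaction, between -0.465 and 1.05 for High against Low Run and between 1.17 and 1.89 for running adjusted for frailty. Likewise, the difference in share (percentage points) of Myh4 lay between -0.0228 and 0.967 for High against Low Control, between -2.29 and 0.209 for High against Low Run and between -4.23 and -1.73 for running in Low mice. Likewise, the difference in share (percentage points) of Myh7 lay between -0.0699 and 0.634 for High against Low Run and between 0.475 and 0.827 for running adjusted for frailty. The cause of these shifts was not tested. With 3 or 4 mice in a group, an interval that includes 0 does not show that a difference is absent.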
